A study of Mus musculus with 4 samples.

Results

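Acetylcholine signalling was read through 9 genes: Chat, Slc18a3, Slc5a7 and Ache, which make, load, supply and break down the transmitter, and the muscarinic receptor genes Chrm1 to Chrm5. They were taken by Ensembl gene identifier from a table of raw read counts for 55414 genes, and all 9 were found and passed the filter on low counts. The data were bulk messenger RNA sequencing of mouse brain, with 2 libraries from Stra8 knockout (KO) mice and 2 from wild-type (WT) mice. Per the series design, mice of both genotypes carried pStra8-GFP, a green fluorescent reporter under control of the Stra8 promoter, and fluorescent cells were sorted from the hippocampus. Stra8 is best known for its role at the start of meiosis in germ cells, and the stated question was what its loss does to the transcriptome of such cells. The labels give neither age, sex nor the number of animals behind a library, so the p-values measure the spread between these libraries, which may be technical.

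Cholinergic neurons synthesise acetylcholine with choline acetyltransferase, pump it into vesicles and, after release, take back the choline that acetylcholinesterase has set free. The hippocampus receives this input mainly from cell bodies in the medial septum and diagonal band, while striatum, habenula, brainstem and spinal cord hold cholinergic neurons of their own. The muscarinic receptors are G-protein-coupled: the products of Chrm1, Chrm3 and Chrm5 act through Gq and phospholipase C, and those of Chrm2 and Chrm4 through Gi/o, which lowers cyclic AMP and opens potassium channels.

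Total counts were between 71097417 and 82172740 per library, and the 2 libraries of a genotype had a variance of 2.61 (KO) and 2.53 (WT) times the Poisson variance of reads, over genes with means of 50 to 10000 reads, of which counting both mates of a pair would by itself give a part. Stra8 itself had 7 and 4 reads in KO libraries 1 and 2, against 5 and 1 in WT libraries 1 and 2, so its counts do not check the genotype labels. Every library also held reads of genes known from outside the hippocampus. The summed level of 7 cerebellar neuron markers was 102.9 and 102.7 CPM (counts scaled to the library total) in KO, against 216 and 222 CPM in WT. Every library held reads of both Xist, from the inactive X chromosome, and the Y-linked Ddx3y: Xist had 441 and 419.8 CPM in KO, against 297 and 287 CPM in WT, and Ddx3y 11.9 and 11.6 CPM in KO, against 27.9 and 28.1 CPM in WT. The part of regional make-up and of sex in the values below was not tested. In bulk libraries fewer cells of a type and less RNA per cell cannot be told apart.

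None of the 9 genes differed between KO and WT at an adjusted p under 0.05 in the edgeR quasi-likelihood test (Benjamini-Hochberg over 21592 genes), or in limma-trend, and none of the 8 with an adjusted p in DESeq2, which gave none for Chrm5. Over all genes tested edgeR called 6.53%, with 723 higher and 688 lower in KO, limma-trend called 6.61%, and DESeq2 called 7.14% of the 14057 genes it gave an adjusted p. At an unadjusted p under 0.05 edgeR gave 2 of the 9, Chrm2 and Chrm4, both higher in KO, beside 17.4% of all genes tested. The libraries of the genotypes did not overlap for 3 of the 9, Slc18a3, Chrm2 and Chrm4, again all higher in KO, beside 45.7% of all genes in either direction and 22.8% in that one. The median log2 fold change of the 9 genes, KO over WT, was 0.024, and that of all genes tested was -0.00038. With 2 libraries against 2 an exact two-sided permutation test of a single gene cannot go below p = 0.333.

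**Figure D1:**
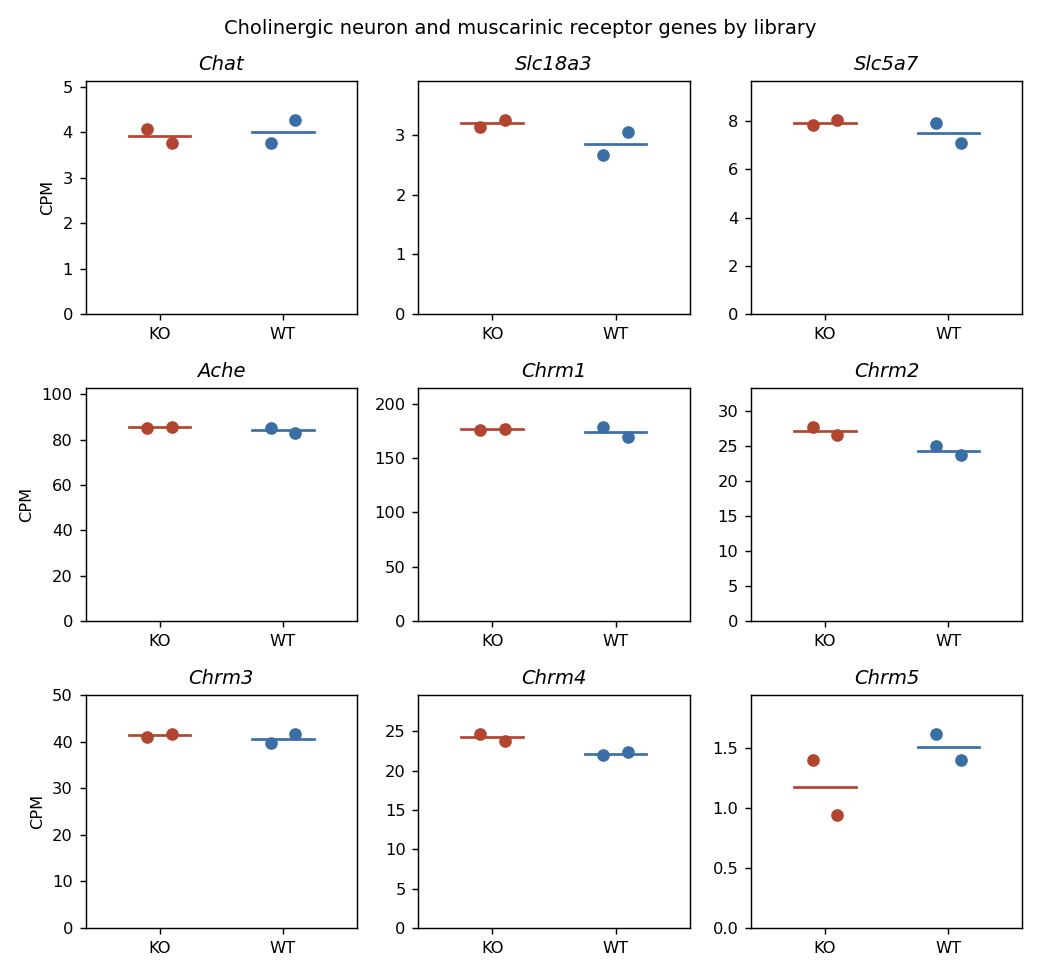
CPM (vertical axes, each starting at 0) of the 9 genes in the 2 KO libraries (red, left) and the 2 WT libraries (blue, right); points are libraries and bars are genotype means. The KO points lie above the WT points for Slc18a3, Chrm2 and Chrm4, and the genotypes overlap for the other 6 genes.

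Chat (ENSMUSG00000021919), the choline acetyltransferase gene and the defining marker of cholinergic neurons, was low in every library. It had 4.07 and 3.75 CPM in KO libraries 1 and 2 (333 and 266 reads), against 3.76 and 4.27 CPM in WT libraries 1 and 2 (303 and 350 reads). The genotypes overlapped, with the highest and almost the lowest value both in WT. The log2 fold change was -0.035 (SE 0.121, 95% interval -0.285 to 0.215, edgeR adjusted p = 0.940), so a difference of up to 1.16-fold higher or a fall to 0.821-fold lay within the interval. Its sign turned with 1 library left out: the value was 0.021 without KO library 2 and 0.060 without WT library 2.

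Slc18a3 (ENSMUSG00000100241), the vesicular acetylcholine transporter, is transcribed from within the Chat gene, in the arrangement known as the cholinergic locus, and the pair is usually expressed in the same neurons. The promoter windows of both genes are shown because they are read from 1 locus on the same strand, with annotated starts 1059 bases apart. In the annotation used for lengths the pair share no exon bases. The sequences are RefSeq windows of GRCm38.p6, minus strand, from 250 bases before to 50 bases after the annotated start, at chr14:32465860-32466159 for Chat and chr14:32464801-32465100 for Slc18a3.
Chat: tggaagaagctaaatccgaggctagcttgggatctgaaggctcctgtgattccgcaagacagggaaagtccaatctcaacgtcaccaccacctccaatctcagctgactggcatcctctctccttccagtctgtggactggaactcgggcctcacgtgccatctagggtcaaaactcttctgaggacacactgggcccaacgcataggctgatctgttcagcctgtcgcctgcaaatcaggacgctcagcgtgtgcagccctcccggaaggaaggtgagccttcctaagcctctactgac
Slc18a3: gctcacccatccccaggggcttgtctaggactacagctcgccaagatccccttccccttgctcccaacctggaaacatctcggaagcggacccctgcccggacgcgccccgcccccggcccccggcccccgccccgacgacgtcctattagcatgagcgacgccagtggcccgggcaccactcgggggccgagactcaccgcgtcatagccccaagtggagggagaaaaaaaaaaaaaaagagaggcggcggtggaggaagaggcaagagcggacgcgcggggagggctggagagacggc
The share of g and c was 55.7% in the Chat window and 67% in the Slc18a3 window.

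Slc18a3 had 3.13 and 3.25 CPM in the KO libraries, against 2.65 and 3.05 CPM in the WT libraries. Both KO values were above both WT values, by a margin smaller than the distance between the WT libraries. KO over WT this was 0.16 on the log2 scale (95% interval -0.12 to 0.44, SE 0.136, edgeR adjusted p = 0.624). Slc5a7 (ENSMUSG00000023945), the high-affinity choline transporter of cholinergic terminals, had 7.83 and 8.05 CPM in KO, against 7.93 and 7.10 CPM in WT. Its genotypes overlapped and its log2 fold change was 0.079 (SE 0.088, 95% interval -0.10 to 0.26, edgeR adjusted p = 0.738).

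The identity genes of forebrain cholinergic neurons, a list of 8, gave 0 calls in edgeR, with 2 of 8 at an unadjusted p under 0.05. All 8 fold changes were above 0, with a median of 0.23 on the log2 scale, and 5 of the 8 did not overlap between genotypes, all 5 higher in KO. Over all genes tested 10765 of 21592 fold changes were above 0, 22.8% did not overlap and were higher in KO, and 17.4% had an unadjusted p under 0.05. Slc17a8, the vesicular glutamate transporter that striatal cholinergic interneurons also carry, had 5.42 and 5.93 CPM in KO, against 4.64 and 4.39 CPM in WT (log2 fold change 0.33, SE 0.106, edgeR adjusted p = 0.0654). Ngfr, the low-affinity neurotrophin receptor of basal forebrain cholinergic neurons, had 5.16 and 5.25 CPM in KO, against 4.30 and 4.47 CPM in WT (edgeR adjusted p = 0.220). The other 2 of the 4 with the smallest p were Nkx2-1 and Isl1, transcription factors of ventral forebrain neurons, with log2 fold changes of 0.33 and 0.24 and edgeR adjusted p of 0.299 and 0.360. The summed level of the list was 24.3 and 26.5 CPM in KO, against 21.9 and 21.4 CPM in WT.

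Motor neuron identity genes were low, apart from Prph, an intermediate filament gene of peripheral and motor neurons, with 222 to 291 reads per library. Of 8, 4 passed the filter on low counts and 0 were called (edgeR, beside 6.53% of all genes tested), with 0 of 4 at an unadjusted p under 0.05. All 4 fold changes were below 0, with a median of -0.63 on the log2 scale. The genotypes did not overlap for 2 of the 4, lower in KO, beside 4949 of 21592 genes tested. The summed level of the list was 4.14 and 4.09 CPM in KO, against 4.66 and 4.63 CPM in WT. Mnx1, the homeobox gene of spinal motor neurons, had 0 and 2 reads in KO, against 2 and 0 in WT. Of the medial habenula list, marking another cholinergic nucleus, 1 of 4 rose and 0 fell (edgeR, beside 3.35% and 3.19% of all genes tested). That gene was Nwd2, which had 56.2 and 51.5 CPM in KO, against 48.3 and 49.2 CPM in WT (log2 fold change 0.14, SE 0.039, edgeR adjusted p = 0.0220, 0.0660 in DESeq2, 0.403 without KO library 1 and 0.0789 without WT library 1). At 48.3 CPM or more it was far above the other 3 habenula genes, Pou4f1, Gpr151 and Nhlh2, which lay between 0.669 and 2.90 CPM.

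Ache (ENSMUSG00000023328) encodes acetylcholinesterase, which ends the signal and is made by many neurons and by red blood cells. It had 85.1 and 85.8 CPM in KO, against 85.4 and 82.8 CPM in WT. The libraries lay close together and the genotypes overlapped. KO over WT, Ache stood at 0.022 on the log2 scale with an SE of 0.028 (edgeR adjusted p = 0.768), and the 95% interval ran from a fold of 0.976 to 1.06. In the same libraries 4 of 7 erythroid genes rose and 0 fell (edgeR, beside 3.35% and 3.19% of all genes tested). The summed level of the 7 was 237 and 229 CPM in KO, against 188 and 202 CPM in WT. The part of blood in the Ache value was not tested. The Ache window (GRCm38.p6, plus strand, chr5:137288004-137288303) is shown because it was the 1 window among those of the 9 genes that held any motif searched for.
Ache: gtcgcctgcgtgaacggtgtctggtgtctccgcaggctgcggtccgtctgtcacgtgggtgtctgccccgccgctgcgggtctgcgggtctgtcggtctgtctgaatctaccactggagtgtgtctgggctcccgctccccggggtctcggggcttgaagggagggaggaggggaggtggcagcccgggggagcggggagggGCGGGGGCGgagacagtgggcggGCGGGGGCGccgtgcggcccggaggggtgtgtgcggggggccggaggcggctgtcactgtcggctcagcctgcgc
Capitals mark 2 matches to the EGR motif GCGNGGGCG, both shortly before the annotated start, and each overlaps a run of further g and c bases.

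Windows were found for 8 of the 9 genes. They were searched on both strands for the EGR motif GCGNGGGCG, for the cyclic AMP response element TGACGTCA and for CNCCTCAG, known as the motif at promoters that STRA8 binds in mouse germ cells. The shares of all 32851 RefSeq windows of this length with a match were 5.55%, 1.79% and 7.94% in that order. Apart from the pair in Ache no match was found, so CNCCTCAG was in 0 of the 8 windows.

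Partners of acetylcholine turnover went both ways. Of 12 genes for choline supply and cholinesterase anchoring, 0 rose and 1 fell (edgeR, beside 3.35% and 3.19% of all genes tested). The median log2 fold change was -0.026, with values from -1.38 for Slc44a3 to 0.50 for Slc44a4. Both of these had 26 reads or fewer per library and were not called. At an unadjusted p under 0.05 there were 5 of the 12, beside 17.4% of all genes tested. The gene that fell was Slc44a5, of the choline transporter-like family, with 16.2 and 15.3 CPM in KO, against 19.9 and 19.5 CPM in WT (log2 fold change -0.32, SE 0.060, edgeR adjusted p = 0.000749). Chka, the choline kinase that feeds phospholipid synthesis, had 73.9 and 68.9 CPM in KO, against 76.3 and 75.6 CPM in WT (edgeR adjusted p = 0.124), and passed the test without KO library 1 (adjusted p = 0.00778). Bche, the related butyrylcholinesterase, and Colq, the collagen tail that anchors acetylcholinesterase, had log2 fold changes of 0.24 and 0.41 with edgeR adjusted p of 0.210 and 0.232.

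Among the Gq-coupled receptors, Chrm1 (ENSMUSG00000032773), the main postsynaptic muscarinic receptor of cortical and hippocampal pyramidal neurons, was the most abundant of the 9 genes. It had 176 and 177 CPM in KO, against 179 and 169.5 CPM in WT. The KO values lay between the WT values. Their ratio was 0.017 on the log2 scale with an SE of 0.023 (edgeR adjusted p = 0.785), with a 95% interval from a fold of 0.980 to 1.05, the narrowest of the 9, and it was -0.020 without WT library 2. Chrm3 (ENSMUSG00000046159), the receptor known from glands and smooth muscle and also made by forebrain neurons, had 40.98 and 41.8 CPM in KO, against 39.7 and 41.7 CPM in WT. It overlapped as well, with a log2 fold change of 0.024 (SE 0.040, 95% interval -0.058 to 0.106, edgeR adjusted p = 0.845), and -0.010 without WT library 1.

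Chrm5 (ENSMUSG00000074939), the receptor known from midbrain dopamine neurons, was the lowest of the 9 genes. It had 115 and 67 reads in KO libraries 1 and 2 (1.41 and 0.946 CPM), against 131 and 115 reads in WT (1.62 and 1.40 CPM). KO library 2 stood below the other 3 libraries, and KO library 1 was level with WT library 2. KO over WT, the value was -0.35 on the log2 scale with an SE of 0.217 (edgeR adjusted p = 0.444), and it was -0.68 without KO library 1 and -0.11 without KO library 2. The 95% interval was the widest of the 9, so a fall to 0.574-fold or a difference of up to 1.07-fold higher lay within it.

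**Figure D2:**
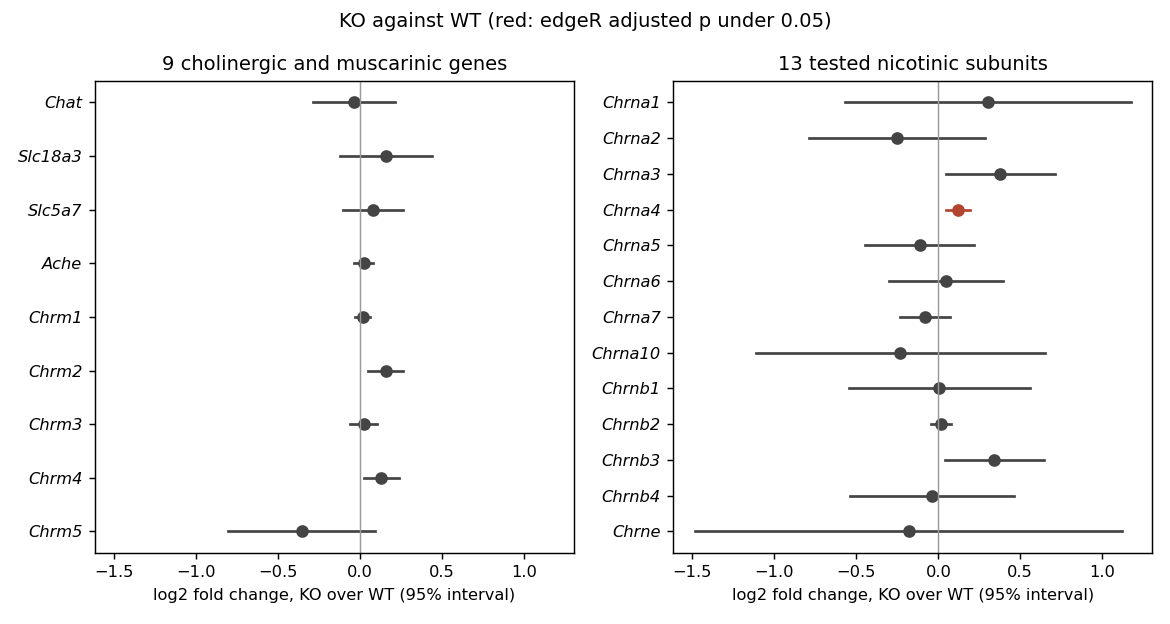
Log2 fold change, KO over WT (horizontal axis), with its 95% interval for the 9 cholinergic and muscarinic genes (left) and the 13 tested nicotinic subunits (right); red marks an edgeR adjusted p under 0.05. Chrm2 and Chrm4 are the 2 genes on the left whose intervals do not reach 0, and Chrna4, at 0.12, is the 1 red point.

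Chrm2 and Chrm4, the Gi/o-coupled pair, were the receptors closest to a call. Chrm2 (ENSMUSG00000045613), known as the autoreceptor that curbs acetylcholine release, had 27.7 and 26.5 CPM in KO (2271 and 1878 reads), against 25.03 and 23.7 CPM in WT (2019 and 1940 reads). Both KO libraries lay above both WT libraries. The log2 fold change was 0.16 (SE 0.051, 95% interval 0.052 to 0.26, unadjusted p = 0.00505, edgeR adjusted p = 0.0676), a fold of 1.12. It passed the threshold under 3 of 12 other settings: with a stricter filter on low counts (adjusted p = 0.0465), with the replicate number as a block (0.0485) and without KO library 2 (0.0442). Over the 12 settings the edgeR, DESeq2 or limma adjusted p ranged from 0.0442 to 0.433 and the log2 fold change from 0.12 to 0.20.

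Chrm4 (ENSMUSG00000040495), abundant in striatal projection neurons that carry the dopamine D1 receptor, had 24.7 and 23.7 CPM in KO, against 21.9 and 22.3 CPM in WT. The genotypes did not overlap. The log2 fold change was 0.13 (SE 0.052, 95% interval 0.024 to 0.24, unadjusted p = 0.0185, edgeR adjusted p = 0.160), a fold of 1.095, and it was called under 0 of 12 other settings. The windows of these 2 genes (GRCm38.p6, plus strand) are shown because theirs were the receptor genes whose libraries did not overlap. They lie at chr6:36387834-36388133 and chr2:91921939-91922238.
Chrm2: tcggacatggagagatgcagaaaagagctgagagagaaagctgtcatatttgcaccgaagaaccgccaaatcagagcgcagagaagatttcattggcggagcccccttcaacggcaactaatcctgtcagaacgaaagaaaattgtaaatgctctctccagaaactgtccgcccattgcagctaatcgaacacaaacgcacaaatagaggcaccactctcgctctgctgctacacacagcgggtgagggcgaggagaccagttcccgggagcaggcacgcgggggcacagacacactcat
Chrm4: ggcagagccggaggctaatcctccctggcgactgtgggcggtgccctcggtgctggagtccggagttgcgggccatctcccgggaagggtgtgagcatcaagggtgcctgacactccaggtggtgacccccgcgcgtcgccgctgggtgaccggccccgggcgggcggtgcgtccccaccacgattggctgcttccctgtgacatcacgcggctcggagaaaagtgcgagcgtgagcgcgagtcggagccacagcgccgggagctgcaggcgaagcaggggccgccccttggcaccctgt
The share of g and c was 52.7% in the Chrm2 window and 70.7% in the Chrm4 window.

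Markers of striatal and neocortical neurons, in which these receptors are also made, moved in the same libraries. Over all genes tested edgeR called 3.35% higher and 3.19% lower in KO. Of 10 striatal projection neuron genes 10 rose and 0 fell, with a median log2 fold change of 0.30 and a summed level of 1117 and 1111 CPM in KO, against 928.5 and 930.5 CPM in WT. Drd1, the dopamine D1 receptor, had 32.3 and 31.7 CPM in KO, against 23.6 and 24.9 CPM in WT. Penk, the enkephalin precursor, Pde10a, a phosphodiesterase, and Rgs9 had log2 fold changes of 0.31, 0.21 and 0.30, with edgeR adjusted p from 8.16e-10 to 1.00e-07. Of 10 neocortical projection neuron genes 6 rose and 0 fell, with a median of 0.13 and a summed level of 925 and 918 CPM in KO, against 857 and 863 CPM in WT. Hippocampal markers went the other way. Of 6 dentate granule cell genes 5 fell and 0 rose, with a median of -0.71. Of 7 hippocampal pyramidal cell genes 5 fell and 0 rose, with a median of -0.18. The part of these striatal, neocortical and hippocampal neurons in the values of Chrm1 to Chrm4 was not tested.

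The genes most like Chrm2 across the 4 libraries, by the root mean square difference of log2 CPM after centring each gene on its own mean, were Map6d1 (0.0082), Bdh1 (0.0092) and Mycn (0.0102), of 11463 genes compared. Map6d1, for example, had 66.6 and 63.2 CPM in KO, against 59.9 and 57.3 CPM in WT. With 4 libraries many genes share such a profile, so the likeness is a description.

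Levels between the genes were compared per length, as CPM per kilobase of exon model from GENCODE M21, an annotation of another build than the counts. Chrm1 was highest, at 26.1 to 27.6 CPM per kilobase over the 4 libraries, followed by Ache at 17.9 to 18.6, Chrm3 at 6.35 to 6.68 and Chrm2 at 3.91 to 4.58. Slc5a7 (1.26 to 1.43) and Slc18a3 (1.10 to 1.35) overlapped in range, and Chat was lowest at 0.798 to 0.907. The other neighbours in this order did not overlap in any library. The M21 models of Chrm4 and Chrm5 hold coding length only, so no level per length is given for this pair. Ache, Chrm1 and Chrm2 share 98, 329 and 142 exon bases with an annotated gene on the other strand, whose reads cannot be told apart where counting ignored strand, a setting that the sources used here do not give.

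**Figure D3:**
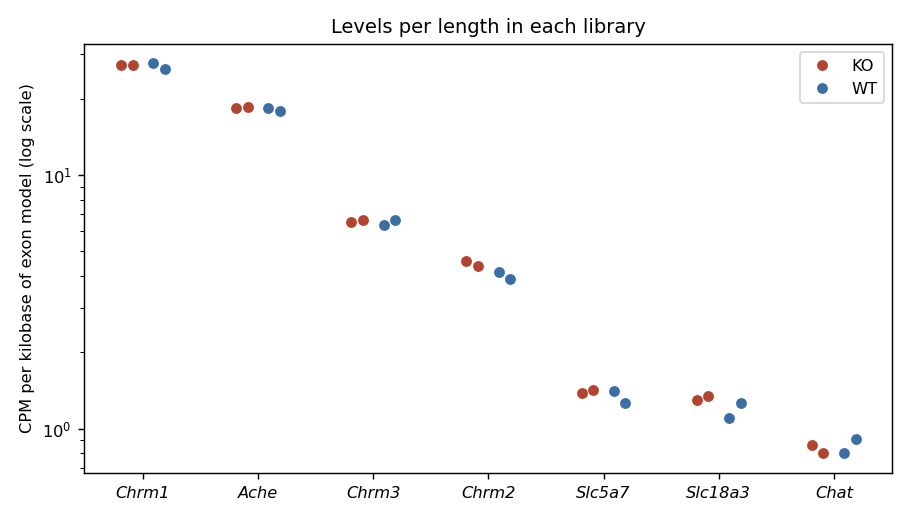
CPM per kilobase of exon model (vertical axis, logarithmic) of the 7 genes whose models extend past the coding sequence, in the 2 KO libraries (red, left of each pair) and the 2 WT libraries (blue, right); points are libraries. Chrm1 and Ache stand highest, and Slc5a7, Slc18a3 and Chat lie between 0.798 and 1.43.

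The other family of acetylcholine receptors, the nicotinic channels, had 16 subunit genes in the table, of which 13 passed the filter. In edgeR 1 of 13 rose and 0 fell, beside 3.35% and 3.19% of all genes tested, with a median log2 fold change of 0.0062. The gene that rose was Chrna4, which with Chrnb2 forms the main high-affinity nicotinic receptor of the brain. It had 53.7 and 55.3 CPM in KO, against 49.1 and 51.05 CPM in WT (log2 fold change 0.12, SE 0.035, edgeR adjusted p = 0.0368). The call did not hold in DESeq2 (adjusted p = 0.106), without KO library 2 (0.184) or without WT library 1 (0.321). Chrnb2, its partner subunit, had 69.4 and 69.7 CPM in KO, against 67.9 and 69.5 CPM in WT, a difference of 0.018 on the log2 scale with an SE of 0.030 (edgeR adjusted p = 0.846).

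Chrna7, which forms a calcium-permeable receptor by itself and is prominent in hippocampus, had 10.97 and 11.01 CPM in KO, against 11.07 and 12.2 CPM in WT (log2 fold change -0.082, SE 0.075, edgeR adjusted p = 0.659). Its KO libraries lay just below its WT libraries. The subunits of medial habenula and midbrain Chrna3 and Chrnb3 had larger values on few reads. Chrna3 had 220 and 247 reads in KO, against 217 and 168 in WT (log2 fold change 0.38, SE 0.161, edgeR adjusted p = 0.207), and Chrnb3 had 240 and 212 reads in KO, against 174 and 206 in WT (0.34, SE 0.145, edgeR adjusted p = 0.202). Chrna3 passed the test without KO library 1 (adjusted p = 0.0448) and without WT library 1 (0.0379).

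The other nicotinic subunits were low and were not called. Chrna5, which modifies receptors of other subunits, and Chrna6, of dopamine neurons, had log2 fold changes of -0.11 and 0.047. Chrna2 and Chrnb4, of interneurons and habenula, had -0.25 and -0.040. The muscle-type subunits Chrna1, Chrnb1 and Chrne and the hair-cell subunit Chrna10 had values of 0.30, 0.0062, -0.18 and -0.23 on the log2 scale, each on 74 reads or fewer per library. Chrna9, the other hair-cell subunit, had 6 and 2 reads in KO, against 2 and 0 in WT. Chrnd, of the muscle receptor, and Chrng, of its embryonic form, had 0 reads in all 4 libraries, which allows up to 0.0367 and 0.0424 CPM in KO and 0.0372 and 0.0366 CPM in WT (3 counts, counting error only, and too low a limit where both mates of a pair were counted).

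Of 8 genes for nicotinic receptor chaperones and Ly6-type modulators 2 rose and 0 fell (3.35% and 3.19% of all genes tested), with a median log2 fold change of 0.0033. Lynx1, a membrane-anchored brake on nicotinic receptors, had 423 and 429 CPM in KO, against 395 and 402 CPM in WT (log2 fold change 0.097, SE 0.016, edgeR adjusted p = 0.000151). Ly6e, a family member, had 160.04 and 156 CPM in KO, against 146.5 and 146.8 CPM in WT (log2 fold change 0.11, SE 0.021, edgeR adjusted p = 0.00137). Lypd6b, with 10.6 and 10.02 CPM in KO, against 8.53 and 9.07 CPM in WT, and Ly6h, with 141.6 and 138 CPM in KO, against 142.1 and 142.1 CPM in WT, were not called (edgeR adjusted p = 0.0986 and 0.677).

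Genes that carry muscarinic signals inside the cell moved in both directions. In the Gq arm 3 of 15 rose and 4 fell, with a median log2 fold change of 0.041, and in the Gi/o arm 4 of 14 rose and 2 fell, with a median of 0.016, beside 3.35% and 3.19% of all genes tested. Itpr1, the calcium release channel that is most abundant in Purkinje cells, had 538.5 and 548 CPM in KO, against 613 and 616 CPM in WT (log2 fold change -0.18, SE 0.014, edgeR adjusted p = 5.39e-09). Plcb1, the phospholipase C of cortical and hippocampal neurons, rose by 0.087 on the log2 scale (edgeR adjusted p = 0.00276), and Prkcb, a protein kinase C, by 0.088 (edgeR adjusted p = 0.00158, and 0.0542 without WT library 1). In the same libraries the 7 cerebellar neuron markers all fell, with a median of -1.16, and the part of cerebellar RNA in the value of Itpr1 was not tested.

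In the Gi/o arm Rgs4, which shortens Gi and Gq signals and is known to damp muscarinic autoreceptor signals in striatal cholinergic neurons, had 381 and 388 CPM in KO, against 299 and 299 CPM in WT. Its difference of 0.37 on the log2 scale (SE 0.016, edgeR adjusted p = 9.88e-14) was the largest of the called genes in the signalling lists. Adcy5, the adenylyl cyclase of striatal neurons, rose by 0.12 (edgeR adjusted p = 2.29e-05), Adcy1 fell by 0.15 (4.82e-08) and Rgs8, known from Purkinje cells, fell by 0.22 (1.09e-06). Of the G protein alpha subunits in the Gq and Gi/o lists, Gnaz, of the Gi/o family, had 114.6 and 113 CPM in KO, against 106.8 and 104.9 CPM in WT, and rose by 0.10 (edgeR adjusted p = 0.00754). The other 7 were not called, with log2 fold changes of 0.026 for Gnaq, 0.0031 for Gna11, 0.19 for Gna14, 0.017 for Gnao1, -0.042 for Gnai1, 0.015 for Gnai2 and -0.12 for Gnai3.

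**Figure D4:**
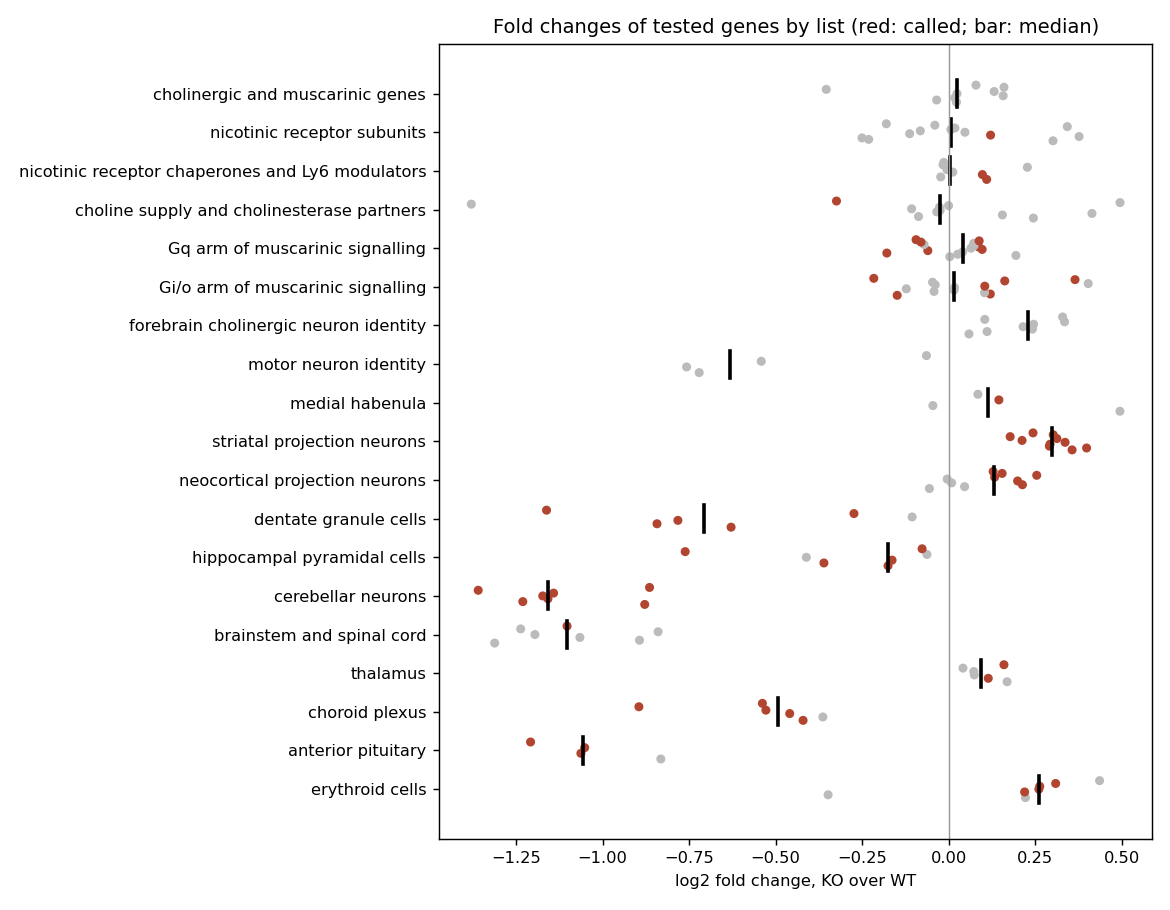
Log2 fold change, KO over WT (horizontal axis), of the tested genes of each list (rows); points are genes, red where the edgeR adjusted p was under 0.05, and black bars are medians. The 9 cholinergic and muscarinic genes centre on 0.024 with no red point, the striatal genes lie to the right of 0 and the cerebellar genes to the left.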

How the data were processed

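The authors deposited 1 table of raw read counts for every gene and library. The submitters' processing notes name GRCm39 and the tools STAR 2.6.1c, featureCounts, FastQC and DESeq2, without their roles, an annotation release or a strand setting. Of counts no higher than 20, 72.8% to 74.3% were even in each library, so both mates of a pair appear to be counted. Total counts per library are in the report. Columns were matched to samples by name, and 52081 of 55414 identifiers to symbols. Both KO column names carried a suffix that the WT names lacked. The labels do not say what it marks, and anything it marks cannot be told apart from genotype.

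The tests were run with edgeR 4.0.16 in R 4.3.3: filterByExpr by genotype (minimum count 10), TMM scaling, glmQLFit and glmQLFTest, KO over WT, called at a Benjamini-Hochberg adjusted p under 0.05 over all genes. The SE is the log2 fold change over the square root of F. Alternatives were DESeq2 1.42.0, limma 3.58.1 (limma-trend), other scaling, filters and dispersion, halved counts, a replicate block and each library left out. The procedure was tested on simulated data. The members and the lists (signalling partners and markers of cell types and regions) were chosen with earlier results of these data known. All 9 members and 16 nicotinic subunits are named, and of other lists up to 4 genes with the smallest p. Some genes that this rule takes are left out here. Drd1, Mnx1 and the G proteins were named outside that rule, after their values were seen.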

Additional observations from a re-analysis of the deposited data

How the results depend on the processing

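The count of the 9 genes called higher in KO was 0 as reported and 1, Chrm2, with a filter at a mean count of 50 and with the replicate block, and ranged from 0 to 1 with 1 library left out. The count called lower was 0 under all 12 settings, where DESeq2 covers 8 of the 9 because it gave Chrm5 no adjusted p, and counts over all genes moved by less than 1.5 times under each. The labels do not say whether same-numbered libraries belong together. Their deviations correlated at 0.027 over 11370 genes, a single value that cannot show whether they shared a batch. With the block 818 genes were higher and 772 lower. Among 86 genes followed, 15 of the values under other settings had the other sign, all of genes that were not called, 27 lost a call and 9 gained one. Chrnb1 had -0.0076 in limma-trend and -0.0013 with the replicate block. With 1 library left out, which assumes that the lone library varies like the others, log2 fold changes ranged from -0.123 to 0.060 for Chat, from -0.020 to 0.057 for Chrm1 and from -0.010 to 0.060 for Chrm3. They ranged from -0.49 to 0.040 for Chrna2, -0.28 to 0.044 for Chrna5, -0.46 to 0.044 for Chrna10, -0.17 to 0.157 for Chrnb1, -0.32 to 0.31 for Chrnb4 and -0.57 to 0.106 for Chrne. For Pou4f1 the range was -0.094 to 0.29. The cause of these moves was not tested. The 95% interval of Chrm5, on 67 to 131 reads per library, was the widest of the 9.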

Other observations

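Markers of other regions are given as values. Over all genes tested edgeR called 3.35% higher and 3.19% lower in KO. Of 6 dentate granule cell genes 5 fell and 0 rose, with a median log2 fold change of -0.71, and of 7 hippocampal pyramidal cell genes 5 fell and 0 rose, with a median of -0.18. Of 7 genes of brainstem and spinal cord, where motor neurons lie, 1 fell, Slc6a5, the neuronal glycine transporter, and 0 rose, while the summed level of the list was 6.05 and 7.11 CPM in KO, against 13.5 and 14.7 CPM in WT. Of 6 choroid plexus genes 5 fell, and of 4 tested anterior pituitary genes 3 fell, with medians of -0.49 and -1.06 and 0 rising in each. Of 6 thalamic genes 2 rose and 0 fell, with a median of 0.094 (edgeR, Benjamini-Hochberg adjusted p under 0.05 in each case).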
